A study of Saccharomyces cerevisiae with 8 samples.

Results

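The genes described here are 9 budding yeast genes of the stress response, HSP12, DDR2, TMA10, YJL144W, HSP30, HSP31, GRE1, SIP18 and STF2. They were grouped as hydrophilins or as genes of the kind switched on by the transcription factors Msn2 and Msn4, and control by these factors was not tested. HSP30 showed neither the hydrophilin features nor the motif of these factors in the window searched below. All 9 were taken by gene symbol from a table of 6337 genes and passed the filter on low counts that left 6087 genes. Several of them were selected on measured values of these libraries, being among the transcripts that rose most in the ncs2Δelp6Δhel2Δ strain, and the fall of some of them in hel2Δ was also known when they were chosen. Every comparison that involves the ncs2Δelp6Δhel2Δ libraries, and that of hel2Δ with wild type, is therefore given for these genes as a description, with a fold change and its standard error (SE) and with no test. The study asked how cells respond to ribosome collisions when the wobble base of certain tRNAs is not modified. Messenger RNA was sequenced in 4 strains, with 2 libraries each.

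The ncs2Δelp6Δhel2Δ strain carried ncs2Δ::HIS3MX and elp6Δ::URA3 together with hel2Δ::LEU2. The ncs2Δelp6Δ strain carried ncs2Δ::HIS3MX and elp6Δ::URA3, the hel2Δ strain carried hel2Δ::LEU2 alone, and the wild type was MATa his3Δ1 leu2Δ0 ura3Δ0 met15Δ0. The mutants were labelled with the same mating type and the same his3, leu2 and ura3 alleles as wild type but without met15Δ0, and the markers that replace the deleted genes came with each deletion, so marker and deletion cannot be told apart. BY4741 was the stated background, and all cultures were grown in YPD, a rich glucose medium, at 30 °C and harvested during exponential growth, with no stress treatment named. How many independent clones stood behind each deletion strain was not given in the sources used here. The study calls its mRNA replicates of ncs2Δelp6Δhel2Δ and ncs2Δelp6Δ biological, and not all that it names for ncs2Δelp6Δ were analysed here.

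Uridine 34, the wobble base of the anticodon, is modified in several tRNAs, among them those that read the lysine, glutamine and glutamate codons ending in A, and Ncs2 (which serves thiolation) and Elp6 (a subunit of Elongator) are each needed for part of that modification. Hel2 is a ubiquitin ligase that recognises ribosomes that have run into each other and sets off their quality control. Msn2 and Msn4 are related zinc finger activators that enter the nucleus when protein kinase A activity falls or stress sets in, and they bind the stress response element, a short motif with the core AGGGG. Hydrophilins are small, strongly hydrophilic, glycine-rich proteins that accumulate in cells facing water loss and are known for protecting cells through drying and rewetting.

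Library totals ranged from 13252947 to 23941037 counts, and levels are given as CPM, counts scaled to a common library total after correction of the totals for composition by TMM factors. Counts of HEL2, NCS2 and ELP6 fitted the labels. HEL2 had 0 and 1 counts in the ncs2Δelp6Δhel2Δ libraries and 0 and 0 in the hel2Δ libraries, against at least 1246 in each wild-type library, while NCS2 and ELP6 had 0 to 11 counts in every library of the ncs2Δelp6Δhel2Δ and ncs2Δelp6Δ strains. MET17, the gene also called MET15, had 243 and 281 CPM in ncs2Δelp6Δhel2Δ and 259.5 and 232 CPM in ncs2Δelp6Δ, against 0 and 0 CPM in hel2Δ and 0.313 and 0.0777 CPM in wild type. The label of hel2Δ thus goes against its libraries at this locus, since it lists no met15Δ0. The strains differed at MET17 in the same way as in uridine 34 modification, and in any comparison across the modification the effects of these differences cannot be told apart. In these bulk cultures a higher level in every cell and a high level in a few cells cannot be told apart.

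The 9 genes are spread over 9 chromosomes of assembly R64 and each has 1 coding exon, with no overlap with another gene annotated by RefSeq. HSP12 lies at chrVI:107256-107585, DDR2 at chrXV:231570-231755, TMA10 at chrXII:783127-783387 and YJL144W, which RefSeq calls ROQ1, at chrX:146359-146673. HSP30 lies at chrIII:156109-157107, HSP31 at chrIV:1501447-1502160, GRE1 at chrXVI:128632-129138, SIP18 at chrXIII:611016-611255 and STF2 at chrVII:508110-508364. Upstream windows were read from the R64 genome, as 500 bases that begin 600 bases before each start codon. The stress response element core, AGGGG on either strand and so also CCCCT, was found at least once in the windows of 7 of the 9 genes, beside 35.6% of the windows of 5789 genes. It was found at least 2 times in 5 of the 9, beside 8.62% of all windows. The set was put together partly from genes of the Msn2 and Msn4 kind, so nothing is read from these shares. HSP12 had 5 matches, DDR2 had 4, SIP18 had 3, TMA10 and STF2 had 2 each, and YJL144W and HSP31 had 1 each. HSP30 and GRE1 had none in this window.

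The stretches that hold most of these matches are shown so that genes that behaved differently can be compared at the level of the motif. They are given in the direction of the gene, with the motif core in capitals, and lie at chrVI:106811-107080 for HSP12, chrXV:231916-232013 (minus strand) for DDR2, chrXII:783711-783968 (minus strand) for TMA10, chrX:146182-146206 for YJL144W, chrIV:1502368-1502392 (minus strand) for HSP31, chrXIII:610480-610661 for SIP18 and chrVII:508539-508654 (minus strand) for STF2. The plus strand is shown for HSP12, YJL144W and SIP18.
HSP12: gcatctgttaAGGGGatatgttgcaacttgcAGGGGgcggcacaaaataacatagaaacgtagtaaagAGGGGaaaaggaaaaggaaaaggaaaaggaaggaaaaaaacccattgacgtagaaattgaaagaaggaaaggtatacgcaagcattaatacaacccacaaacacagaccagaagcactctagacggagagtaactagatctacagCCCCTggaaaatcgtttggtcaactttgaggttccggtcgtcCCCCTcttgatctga
DDR2: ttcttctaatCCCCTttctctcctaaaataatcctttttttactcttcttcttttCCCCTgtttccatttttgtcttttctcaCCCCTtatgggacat
TMA10: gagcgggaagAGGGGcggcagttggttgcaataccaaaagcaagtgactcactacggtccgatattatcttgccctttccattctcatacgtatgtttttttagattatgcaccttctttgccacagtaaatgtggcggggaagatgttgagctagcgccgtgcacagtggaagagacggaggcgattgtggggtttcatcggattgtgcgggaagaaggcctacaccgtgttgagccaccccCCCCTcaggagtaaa
YJL144W: tacgaaacgaAGGGGctgcgaaaat
HSP31: gcttggcataAGGGGcatgtacata
SIP18: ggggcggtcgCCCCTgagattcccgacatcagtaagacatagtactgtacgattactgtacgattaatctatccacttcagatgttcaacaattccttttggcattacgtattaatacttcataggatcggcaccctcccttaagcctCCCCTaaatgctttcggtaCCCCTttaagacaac
STF2: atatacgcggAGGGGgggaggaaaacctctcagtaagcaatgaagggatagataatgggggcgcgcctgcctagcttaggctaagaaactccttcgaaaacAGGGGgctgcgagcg

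HSP12 had its 5 matches between 435 and 190 bases before the start codon, and 3 of the 4 in DDR2 stood within 98 bases. The heat shock element core, TTCNNGAA or GAANNTTC, was found in the windows of 4 of the 9 genes (DDR2, YJL144W, HSP31 and STF2), beside 36.8% of all windows, and none of these matches overlapped a stress response element core. TMA10 and STF2, a paralogous pair, had 2 stress element matches each, and only TMA10 was high in ncs2Δelp6Δhel2Δ. SIP18 had 3 and differed little between ncs2Δelp6Δhel2Δ and ncs2Δelp6Δ. A match is a description of letters in a window and was not tested for binding or for a link to the levels. Bases outside the window were not searched.

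**Figure D1:**
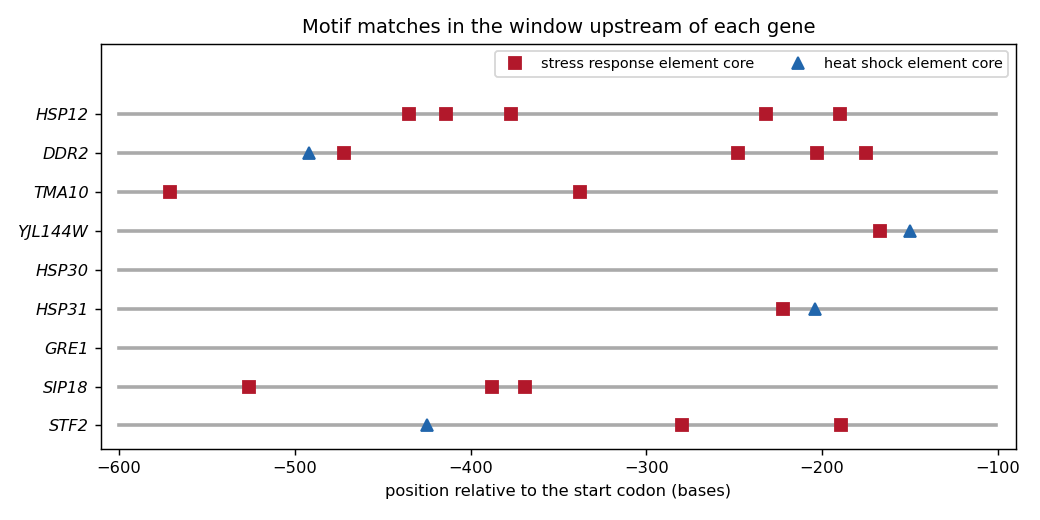
Positions of motif matches upstream of each gene, in bases relative to the start codon, over the window of 500 bases that begins 600 bases before it (grey lines). Squares are matches to the stress response element core and triangles matches to the heat shock element core, and HSP12 and DDR2 hold the most squares, with 5 and 4, while HSP30 and GRE1 hold none.

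The encoded proteins fell into hydrophilins and others. HSP12, TMA10, YJL144W, GRE1, SIP18 and STF2 encoded proteins with more than 6% glycine and a mean Kyte-Doolittle hydropathy below -1, features that 72 of 5790 yeast proteins (1.24%) had. Such features define hydrophilins, and the set was put together partly from hydrophilins, so nothing is read from this number. GRE1 was the most hydrophilic of the 9, with a hydropathy of -1.85 and 13.1% glycine, and none of the other proteins of the 9 passed 12.7% glycine. DDR2 and HSP30 encoded hydrophobic proteins, with hydropathies of 0.761 and 0.355, and HSP31 lay between at -0.262, beside a median of -0.392 for all proteins. The coding sequences were short, between 186 bases for DDR2 and 999 for HSP30, with a median of 315 beside 1190 for all genes. None of the 9 had a near-identical copy elsewhere in the genome (at least 95% identity over at least 100 bases). The share of AAA, CAA and GAA codons, which are read by the tRNAs that carry a thiolated uridine 34, ranged from 4.81% in YJL144W to 18.3% in HSP12, beside a median of 11.3% for all genes, and codons of other tRNAs that Elongator modifies were not counted.

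**Figure D2:**
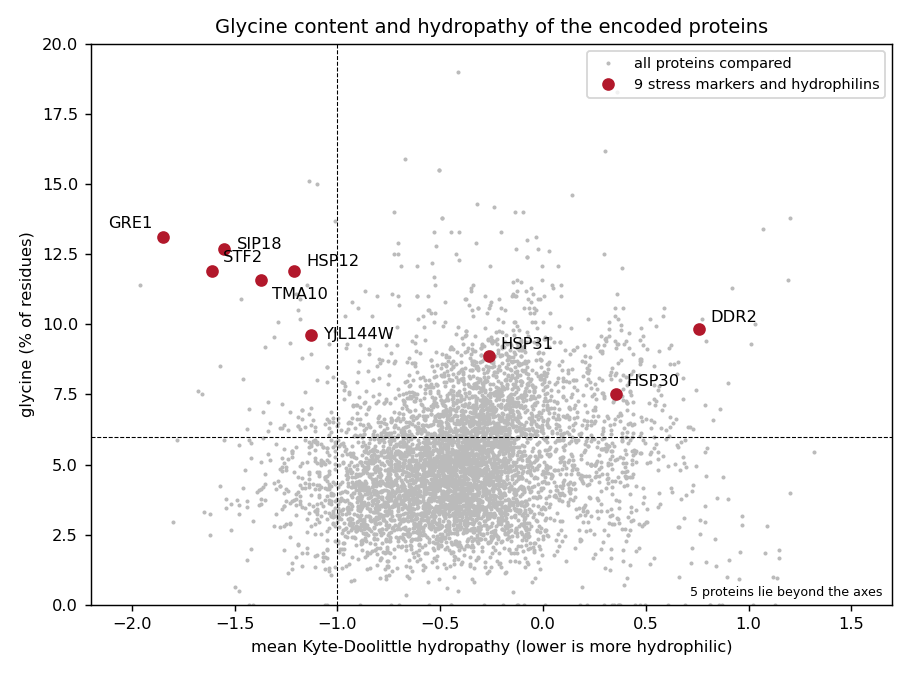
Glycine content (% of residues) against mean hydropathy for the proteins encoded by the 9 genes (red) and all proteins compared (grey), with dashed lines at 6% glycine and a hydropathy of -1. The 6 hydrophilins lie in the upper left corner, where 72 of 5790 proteins lie, and DDR2 and HSP30 lie on the hydrophobic side.

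Together the 9 genes took up 0.0852% and 0.0789% of all counts in the ncs2Δelp6Δhel2Δ libraries, 0.0243% and 0.0247% in the ncs2Δelp6Δ libraries and 0.0115% and 0.0117% in the hel2Δ libraries, against 0.0161% and 0.0169% in the wild-type libraries. Their levels took 3 shapes across the strains. HSP12, DDR2, TMA10, YJL144W, HSP30 and HSP31 were far higher in ncs2Δelp6Δhel2Δ than in any other strain. GRE1 and SIP18 were higher in both strains without Ncs2 and Elp6, as HSP12, YJL144W and HSP30 were too, but differed little between these strains. STF2 was lowest in ncs2Δelp6Δ and near its wild-type level in ncs2Δelp6Δhel2Δ. The genes are taken in that order.

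**Figure D3:**
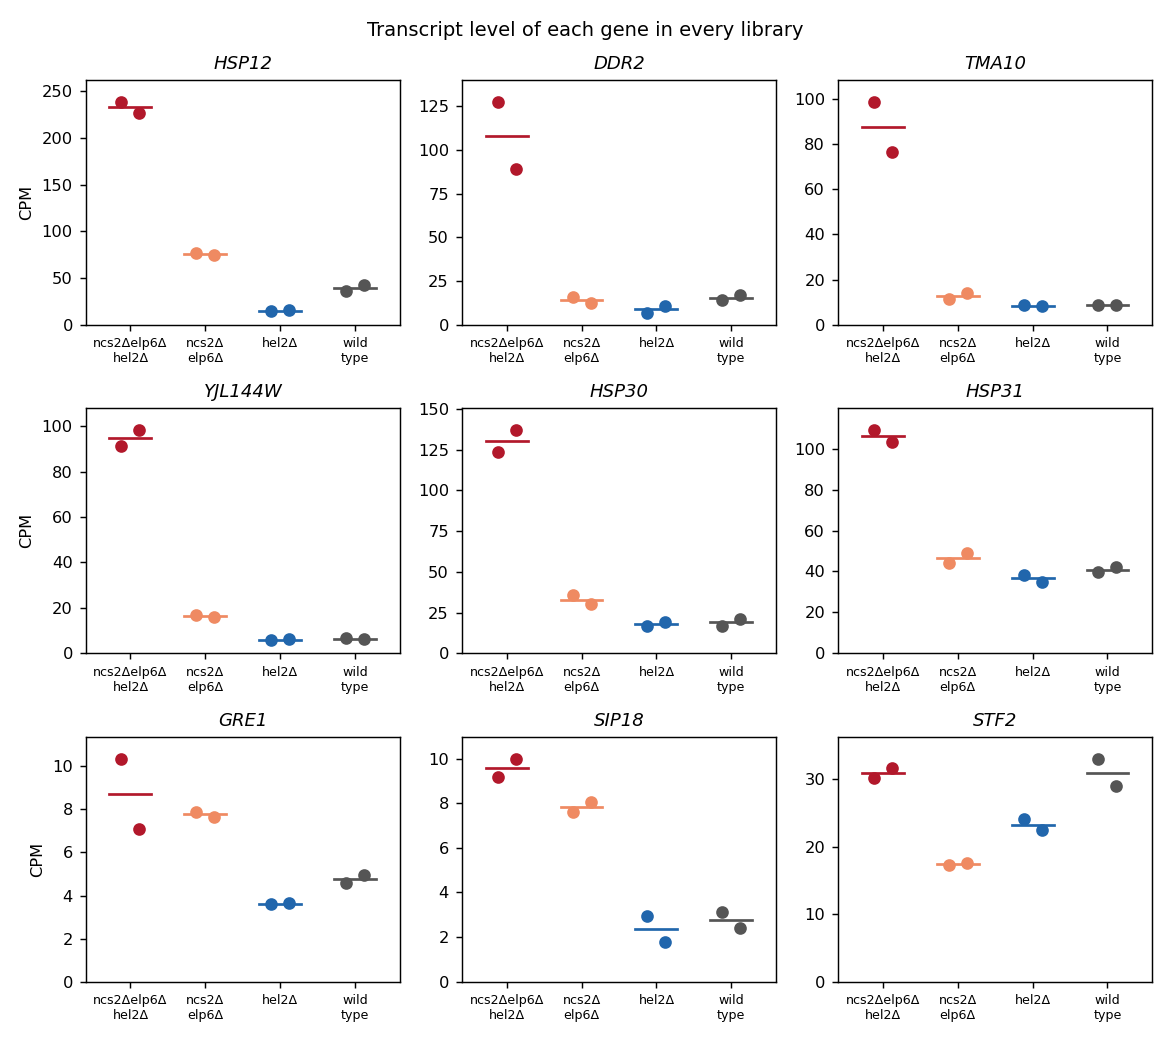
Level of each of the 9 genes in CPM (linear axes from 0, one scale per panel) in each of the 8 libraries, with points for libraries and bars for the strain means. Both ncs2Δelp6Δhel2Δ points lie above all other points for HSP12, DDR2, TMA10, YJL144W, HSP30, HSP31 and SIP18, and STF2 is lowest in ncs2Δelp6Δ at 17.2 and 17.5 CPM.

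HSP12, which encodes a small protein that lies at the plasma membrane and helps to keep it ordered under stress, was measured at 238 and 227 CPM in ncs2Δelp6Δhel2Δ, 76.8 and 75.2 CPM in ncs2Δelp6Δ and 15.0 and 15.6 CPM in hel2Δ, against 35.9 and 43.1 CPM in wild type. The libraries of the 4 strains did not overlap, and the order ran from ncs2Δelp6Δhel2Δ through ncs2Δelp6Δ and wild type down to hel2Δ. HSP12 was 3.06-fold higher in ncs2Δelp6Δhel2Δ than in ncs2Δelp6Δ (log2 fold change 1.62 ± 0.09 SE) and 15.2-fold higher than in hel2Δ (3.93 ± 0.11 SE). Among the 9 it was the gene that lay lowest in hel2Δ relative to wild type, at 0.389 of that level.

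DDR2, a gene induced by DNA damage, heat and many other stresses whose product has no well defined role, had 128 and 89.0 CPM in ncs2Δelp6Δhel2Δ, 15.8 and 12.6 CPM in ncs2Δelp6Δ and 6.92 and 10.8 CPM in hel2Δ, against 14.0 and 16.8 CPM in wild type. Only the ncs2Δelp6Δhel2Δ libraries stood high, and the ncs2Δelp6Δ libraries overlapped those of wild type. DDR2 showed the largest difference of the 9 between ncs2Δelp6Δhel2Δ and ncs2Δelp6Δ, 7.68-fold (log2 2.94 ± 0.23 SE). It was also among the less even of them between libraries of 1 strain, with ratios of 1.43 in ncs2Δelp6Δhel2Δ and 1.56 in hel2Δ.

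TMA10, whose product associates with ribosomes, had 98.5 and 76.2 CPM in ncs2Δelp6Δhel2Δ, 11.4 and 14.0 CPM in ncs2Δelp6Δ and 8.84 and 8.16 CPM in hel2Δ, against 8.66 and 8.62 CPM in wild type. It was 6.85-fold higher in ncs2Δelp6Δhel2Δ than in ncs2Δelp6Δ (log2 2.78 ± 0.16 SE) and 10.3-fold higher than in hel2Δ (3.36 ± 0.16 SE), and the hel2Δ and wild-type libraries overlapped. YJL144W encodes Roq1, a hydrophilin that, after cleavage, redirects the ubiquitin ligase Ubr1 towards misfolded proteins. It had 91.1 and 98.1 CPM in ncs2Δelp6Δhel2Δ, 17.1 and 16.0 CPM in ncs2Δelp6Δ and 5.67 and 6.43 CPM in hel2Δ, against 6.78 and 6.06 CPM in wild type. The fold change between ncs2Δelp6Δhel2Δ and wild type, 14.6-fold (log2 3.87 ± 0.12 SE), was the largest of the 9 for that pair of strains and ranked 5 among the rises of all 6087 genes.

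HSP30, which encodes a plasma membrane protein that restrains the proton pump Pma1, had 123 and 137 CPM in ncs2Δelp6Δhel2Δ, 35.5 and 30.1 CPM in ncs2Δelp6Δ and 16.7 and 19.5 CPM in hel2Δ, against 16.6 and 21.2 CPM in wild type. The level in ncs2Δelp6Δ lay above all hel2Δ and wild-type libraries, and ncs2Δelp6Δhel2Δ was a further 3.97-fold higher (log2 1.99 ± 0.13 SE). HSP31, a methylglyoxalase of the DJ-1 family, had 109 and 103 CPM in ncs2Δelp6Δhel2Δ, 44.0 and 49.0 CPM in ncs2Δelp6Δ and 38.4 and 34.8 CPM in hel2Δ, against 39.5 and 42.2 CPM in wild type. Its libraries did not overlap between any of the strains, but the steps below ncs2Δelp6Δhel2Δ were small, and the difference between ncs2Δelp6Δhel2Δ and ncs2Δelp6Δ was 2.28-fold (log2 1.19 ± 0.09 SE). HSP30 had no stress response element core in its window and HSP31 had 1, and a link between matches and levels was not tested.

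GRE1 and SIP18 encode paralogous hydrophilins of the drying response, and SIP18 binds phospholipids. GRE1 had 10.3 and 7.11 CPM in ncs2Δelp6Δhel2Δ, 7.87 and 7.67 CPM in ncs2Δelp6Δ and 3.59 and 3.64 CPM in hel2Δ, against 4.59 and 4.97 CPM in wild type. SIP18 had 9.19 and 9.98 CPM in ncs2Δelp6Δhel2Δ, 7.63 and 8.03 CPM in ncs2Δelp6Δ and 2.96 and 1.77 CPM in hel2Δ, against 3.13 and 2.41 CPM in wild type. Both were the scarcest of the 9, with as few as 31 counts of SIP18 in a wild-type library and 64 of GRE1. For both, every library without Ncs2 and Elp6 lay above every library with them, and the differences between ncs2Δelp6Δhel2Δ and ncs2Δelp6Δ were within 2 SE of 0, at 0.17 ± 0.22 SE for GRE1 and 0.29 ± 0.24 SE for SIP18 on the log2 scale. GRE1 overlapped between these strains and differed 1.46-fold between the ncs2Δelp6Δhel2Δ libraries.

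STF2, whose product binds the proton channel sector of the mitochondrial ATP synthase and is needed to survive drying, had 30.1 and 31.7 CPM in ncs2Δelp6Δhel2Δ, 17.2 and 17.5 CPM in ncs2Δelp6Δ and 24.1 and 22.4 CPM in hel2Δ, against 33.0 and 28.9 CPM in wild type. Both ncs2Δelp6Δ and both hel2Δ libraries lay below wild type, and in ncs2Δelp6Δhel2Δ the libraries lay within the wild-type range. The difference between ncs2Δelp6Δhel2Δ and wild type was -0.0053 ± 0.11 SE on the log2 scale, while ncs2Δelp6Δhel2Δ was 1.78-fold above ncs2Δelp6Δ (0.83 ± 0.12 SE) and 1.33-fold above hel2Δ (0.41 ± 0.11 SE). STF2 was the least like the mean standardised profile of the rest of the 9, with a correlation of 0.235 across the 8 libraries. The correlation was 0.952 to 0.982 for HSP12, DDR2, TMA10, YJL144W, HSP30 and HSP31, 0.785 for GRE1 and 0.788 for SIP18. These correlations are descriptions over 8 libraries of 4 strains, which share a strain in pairs. Each mean leaves out the gene compared with it.

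Levels of different genes were compared per kilobase of coding sequence. In ncs2Δelp6Δhel2Δ the order was HSP12 (706.1 ± 24.5 CPM per kb, SD, n = 2), DDR2 (580.6 ± 146 CPM per kb), TMA10 (334.5 ± 60.2 CPM per kb) and YJL144W (300.3 ± 15.6 CPM per kb), followed by HSP31, HSP30 and STF2 and, at the low end, SIP18 (39.96 ± 2.33 CPM per kb) and GRE1 (17.22 ± 4.52 CPM per kb). The neighbours HSP12 and DDR2, and TMA10 and YJL144W, did not differ beyond their spread. In wild type STF2 (121.2 ± 11.3 CPM per kb) and HSP12 (119.7 ± 15.4 CPM per kb) came first without differing beyond their spread, and DDR2 (82.8 ± 10.5 CPM per kb) followed. YJL144W and TMA10, among the 4 highest in ncs2Δelp6Δhel2Δ, were at 20.38 ± 1.61 and 33.1 ± 0.0858 CPM per kb in wild type. STF2 held the first place in wild type and hel2Δ and the seventh in ncs2Δelp6Δhel2Δ, whereas GRE1 was the lowest in all 4 strains.

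The first question was what loss of Hel2 alone does to these transcripts. HSP12 was at 0.389 of its wild-type level in hel2Δ (log2 fold change -1.36 ± 0.10 SE), and all 9 estimates were negative. Since the lower level of some of them in hel2Δ was used when the genes were chosen, these values are a description with no test. DDR2 (-0.78 ± 0.25 SE) and STF2 (-0.41 ± 0.11 SE) had the next lowest estimates among the 9. GRE1 was at -0.40 ± 0.25 SE, SIP18 at -0.25 ± 0.30 SE and HSP31 at -0.16 ± 0.10 SE. YJL144W, HSP30 and TMA10 had estimates of -0.091, -0.050 and -0.025, each smaller than its own SE. In 5 of the 9 genes (HSP12, DDR2, STF2, GRE1 and HSP31) both hel2Δ libraries lay below both wild-type libraries, a pattern that 15.2% of all genes had and from which nothing is read here.

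The second question was what loss of the wobble modification does while Hel2 is present. SIP18, YJL144W, HSP12, HSP30 and TMA10 rose in ncs2Δelp6Δ, by 1.47-fold to 2.79-fold, and STF2 fell. SIP18 rose by 1.48 ± 0.27 on the log2 scale (SE, edgeR adjusted p = 0.00407) and YJL144W by 1.35 ± 0.13 (adjusted p = 9.47e-05), so that YJL144W had 17.1 and 16.0 CPM in ncs2Δelp6Δ, against 6.78 and 6.06 CPM in wild type. HSP12 rose by 0.95 ± 0.10 (adjusted p = 0.000139) and HSP30 by 0.80 ± 0.14 (adjusted p = 0.00335). TMA10 rose by 0.56 ± 0.17 (adjusted p = 0.0364), a call that was lost without wild-type replicate 1 (adjusted p = 0.115), without wild-type replicate 2 (adjusted p = 0.0911) and without ncs2Δelp6Δ replicate 2 (adjusted p = 0.248). GRE1 had an estimate of 0.70 ± 0.23 SE just outside the threshold (adjusted p = 0.0511), HSP31 one of 0.19 ± 0.09 SE (adjusted p = 0.166) and DDR2 one of -0.12 ± 0.24 SE (adjusted p = 0.748). STF2 changed by -0.83 ± 0.12 SE (adjusted p = 0.000871), to 0.561 of its level in wild type.

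In ncs2Δelp6Δ against wild type, 5 of the 9 were therefore called higher, beside 14.9% of all genes, and 1 was called lower, beside 13.0% of all genes. Both ncs2Δelp6Δ libraries lay above both wild-type libraries for 7 of the 9 (35.5% of all genes) and below for 1 (30.0% of all genes). The comparison shares the ncs2Δelp6Δ libraries with the contrast that chose several of the genes. It also shares the wild-type libraries with the comparison of hel2Δ with wild type, which was known at the choice. The adjusted p-values of the 9 are therefore not independent of the choice. The MET17 difference runs along this comparison, so the effects of the modification and of the MET17 locus cannot be told apart. The median of the 9 log2 fold changes was 0.70, beside 0.033 for all genes.

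The third question was what loss of Hel2 does where the modification is missing, the contrast on which several genes were chosen. The log2 differences between ncs2Δelp6Δhel2Δ and ncs2Δelp6Δ ran from 0.17 for GRE1 to 2.94 for DDR2, with a median of 1.62 for the 9 and 0.0054 for all genes. For 8 of the 9, all but GRE1, both ncs2Δelp6Δhel2Δ libraries lay above both ncs2Δelp6Δ libraries, as did 28.2% of all genes. DDR2, TMA10 and YJL144W ranked 2, 3 and 6 among the rises of the 6087 genes, HSP30 ranked 16, HSP12 20, HSP31 43 and STF2 95, whereas SIP18 ranked 666 and GRE1 1307. These ranks are what the choice of genes used and are given only to show that the set is uneven. Against hel2Δ, all 9 were higher in ncs2Δelp6Δhel2Δ in every library (33.5% of all genes), by 0.41 for STF2 to 3.96 for YJL144W on the log2 scale. Against wild type, 8 of the 9, all but STF2, were higher in both libraries (33.6% of all genes).

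The difference between the 2 effects of losing Hel2, that is the log2 change between ncs2Δelp6Δhel2Δ and ncs2Δelp6Δ minus the log2 change between hel2Δ and wild type, was positive for all 9. It was 3.72 ± 0.34 SE for DDR2, 2.98 ± 0.14 SE for HSP12, 2.8 ± 0.23 SE for TMA10, 2.61 ± 0.18 SE for YJL144W and 2.04 ± 0.20 SE for HSP30. HSP31 (1.35 ± 0.13 SE) and STF2 (1.24 ± 0.16 SE) had smaller values, and GRE1 (0.57 ± 0.33 SE) and SIP18 (0.54 ± 0.38 SE) had values of less than 2 SE. For HSP12, DDR2 and STF2 both terms entered, since these were also lower in hel2Δ than in wild type, with no overlap of libraries. The hel2Δ libraries also lay below wild type for HSP31 and GRE1, by less than 2 SE. For TMA10, YJL144W and HSP30 nearly all of it came from the strains without the modification, as their estimates in hel2Δ against wild type were within 1 SE of 0.

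**Figure D4:**
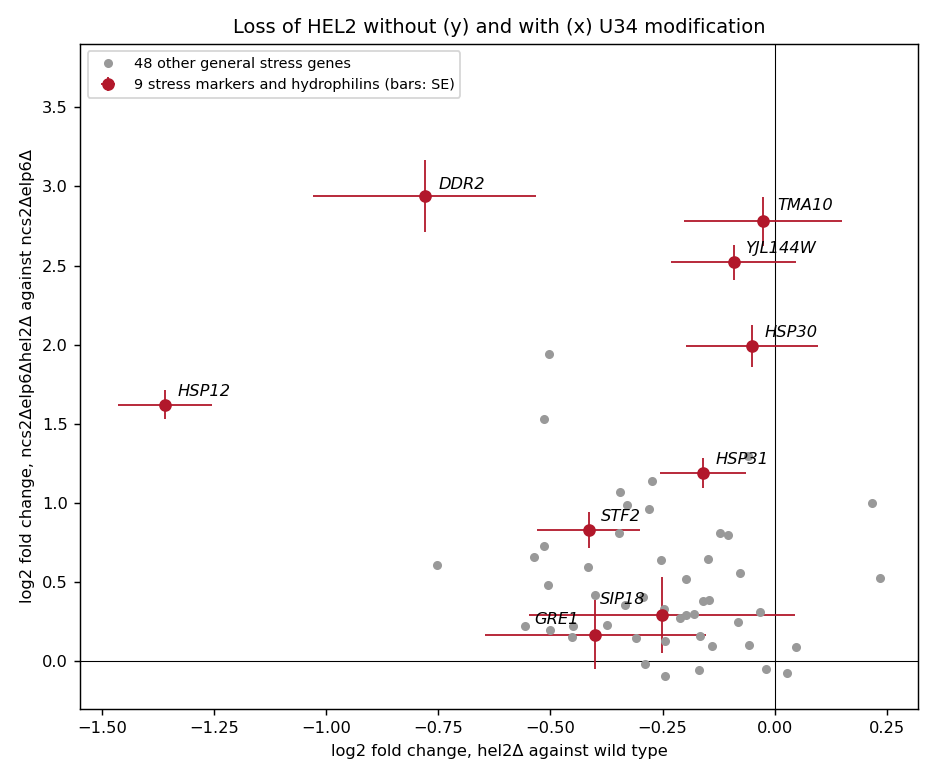
Log2 fold change on loss of HEL2 in cells without the modification (ncs2Δelp6Δhel2Δ against ncs2Δelp6Δ, vertical axis) and in cells with it (hel2Δ against wild type, horizontal axis) for the 9 genes (red, bars are SE) and 48 other general stress genes (grey). DDR2, TMA10 and YJL144W lie highest at 2.94, 2.78 and 2.52, HSP12 lies farthest left at -1.36, and GRE1 and SIP18 lie among the grey points.

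Paralogues and relatives of these genes did not share the pattern throughout. HOR7, the paralogue of DDR2 (45.8% identical as a protein), had 357 and 234 CPM in ncs2Δelp6Δhel2Δ, 159 and 136 CPM in ncs2Δelp6Δ and 207 and 279.9 CPM in hel2Δ, against 150.0 and 270.2 CPM in wild type. It was higher in ncs2Δelp6Δhel2Δ than in ncs2Δelp6Δ by 1.00 ± 0.27 SE on the log2 scale but was not called (adjusted p = 0.0579). TMA10 and STF2 are 64.3% identical, and their log2 differences between ncs2Δelp6Δ and wild type had opposite signs, at 0.56 and -0.83. GRE1 and SIP18, which are 36.0% identical over the aligned part, had similar profiles, with a correlation of 0.909 over the 8 libraries. The difference in fold change between paralogues was not tested.

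HSP30 has relatives in MRH1 and YRO2, which encode plasma membrane proteins of the same family (38.1% and 39.9% identical to HSP30). Both fell in ncs2Δelp6Δ, in which HSP30 rose. YRO2 had 26.6 and 26.9 CPM in ncs2Δelp6Δhel2Δ, 13.0 and 14.1 CPM in ncs2Δelp6Δ and 51.2 and 56.8 CPM in hel2Δ, against 66.5 and 79.2 CPM in wild type. In ncs2Δelp6Δ against wild type MRH1 changed by -2.81 ± 0.12 SE (adjusted p = 9.65e-07) and YRO2 by -2.42 ± 0.12 SE (adjusted p = 1.9e-06) on the log2 scale. Both were higher in ncs2Δelp6Δhel2Δ than in ncs2Δelp6Δ, MRH1 by 0.68 ± 0.11 SE (adjusted p = 0.0103) and YRO2 by 0.97 ± 0.12 SE (adjusted p = 0.00161), so that in this comparison they moved in the same direction as HSP30. HSP33 and SNO4, relatives of HSP31, had 0 to 5 counts per library and were not tested, and HSP32 was not analysed here. How reads that match more than 1 gene were counted is not given, so low counts of such relatives need not show low levels.

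Of the other hydrophilins, NOP6, which encodes a protein bound to ribosomal RNA precursors, fell in ncs2Δelp6Δ (log2 fold change -0.88 ± 0.12 SE, adjusted p = 0.000786), while YNL190W, which encodes a cell wall protein, was at -0.19 ± 0.09 SE (adjusted p = 0.127). In ncs2Δelp6Δhel2Δ against ncs2Δelp6Δ, NOP6 (0.24 ± 0.12 SE, adjusted p = 0.246) and YNL190W (0.23 ± 0.08 SE, adjusted p = 0.122) were not called. Of the 5 relatives tested, edgeR called none in hel2Δ against wild type, where 0.312% of all genes were called higher and 0.345% lower. Of these relatives 1 (YRO2) was lower at an unadjusted p under 0.05, and DESeq2 called none.

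**Figure D5:**
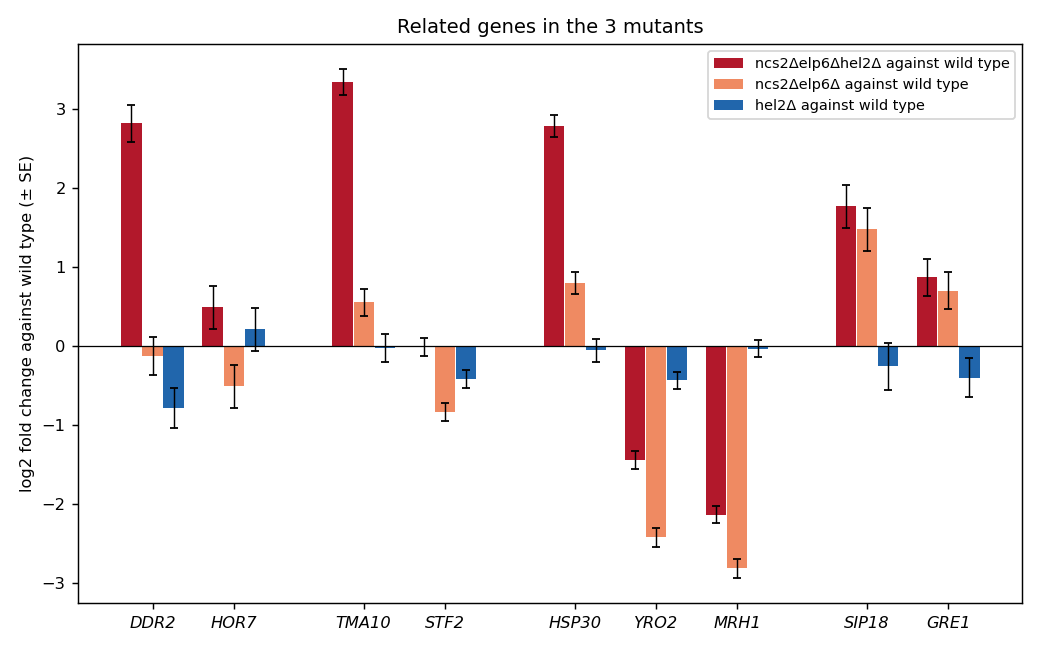
Log2 fold change against wild type (bars, with SE as whiskers) of 4 groups of related genes in ncs2Δelp6Δhel2Δ (red), ncs2Δelp6Δ (orange) and hel2Δ (blue). HSP30 is above 0 where YRO2 and MRH1 are below it in both strains without the modification, and TMA10 and STF2 part in ncs2Δelp6Δ, at 0.56 and -0.83.

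Transcripts of the known regulators of such genes were measured in the same libraries. MSN4 had 157 and 140.2 CPM in ncs2Δelp6Δhel2Δ, 108 and 112 CPM in ncs2Δelp6Δ and 77.0 and 69.0 CPM in hel2Δ, against 75.6 and 83.1 CPM in wild type. It rose by 0.47 ± 0.09 in ncs2Δelp6Δ against wild type (SE, adjusted p = 0.00572) and by 0.43 ± 0.09 in ncs2Δelp6Δhel2Δ against ncs2Δelp6Δ (adjusted p = 0.0276) on the log2 scale. MSN2 was not called in any comparison, with estimates from -0.14 to 0.088. MSN4 is itself known as a stress-induced gene, whereas MSN2 is expressed steadily. TPK2, which encodes a catalytic subunit of protein kinase A, fell in ncs2Δelp6Δ by 0.62 ± 0.10 (SE, adjusted p = 0.00174), and BCY1, which encodes its regulatory subunit, fell by 0.25 ± 0.08 (adjusted p = 0.0365). TPK3, which also encodes a catalytic subunit, was at 0.17 ± 0.08 SE (adjusted p = 0.14).

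Of the 13 regulators examined, 4 rose (MSN4, YAP1, HSF1 and RIM15) and 2 fell (TPK2 and BCY1) in ncs2Δelp6Δ against wild type, beside 14.9% of all genes that rose and 13.0% that fell. MSN4 was the 1 of 13 that rose in ncs2Δelp6Δhel2Δ against ncs2Δelp6Δ (2.81% of all genes). None of the 13 fell there by edgeR (4.12% of all genes), with 3 lower at an unadjusted p under 0.05 and 1, PDE2, by DESeq2. YAP1, the activator of the oxidative stress response, rose by 0.53 ± 0.09 (SE, adjusted p = 0.00278), HSF1, the heat shock activator, by 0.43 ± 0.10 (adjusted p = 0.00969), and RIM15, a kinase of the nutrient response, by 0.29 ± 0.09 (adjusted p = 0.0336). GIS1, YAK1, PDE2, HOG1 and WHI2 were not called by edgeR in either comparison. In hel2Δ against wild type edgeR called none of the 13, where 0.312% of all genes were called higher and 0.345% lower. Of the 13, 1 (RIM15) was lower at an unadjusted p under 0.05, and DESeq2 called none. Transcript levels do not show the activity or location of these proteins, which were not measured here.

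A list of 48 other general stress genes, written from general knowledge with earlier results of these data known and including HOR7, was set beside the 9. In ncs2Δelp6Δhel2Δ against ncs2Δelp6Δ, 20 of the 48 rose (2.81% of all genes) and none fell by edgeR, at an unadjusted p under 0.05 or by DESeq2 (4.12% of all genes fell), with a median log2 fold change of 0.38 beside 1.62 for the 9. The largest rises were those of SPI1, a cell wall protein (1.94 ± 0.14 SE, adjusted p = 4.54e-05), YGP1, a secreted glycoprotein (1.53 ± 0.13 SE, adjusted p = 0.000145), and CYC7, the cytochrome c made under low oxygen (1.30 ± 0.22 SE, adjusted p = 0.0117). The count of 20 was smaller without ncs2Δelp6Δ replicate 1 (7), ncs2Δelp6Δ replicate 2 (8), ncs2Δelp6Δhel2Δ replicate 1 (7) or ncs2Δelp6Δhel2Δ replicate 2 (10). The difference between the effects of losing Hel2 was called positive for 15 of the 48 (0.969% of all genes) and negative for none by edgeR, at an unadjusted p under 0.05 or by DESeq2 (0.164% of all genes), led by SPI1 (2.45 ± 0.20 SE), YGP1 (2.04 ± 0.18 SE) and CTT1, catalase T (1.41 ± 0.13 SE). That count was 9 without ncs2Δelp6Δ replicate 1, 6 without ncs2Δelp6Δ replicate 2 and 8 without ncs2Δelp6Δhel2Δ replicate 1.

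In hel2Δ against wild type most estimates of the list were negative, as were those of the 9. HXK1, a hexokinase (-0.54 ± 0.07 SE, adjusted p = 0.00544), and GSY1, a glycogen synthase (-0.50 ± 0.09 SE, adjusted p = 0.0415), were the 2 of 48 called lower (0.345% of all genes), 44 of the 48 estimates were negative, and the median was -0.25, as it was for the 9. None was called higher by edgeR, at an unadjusted p under 0.05 or by DESeq2 (0.312% of all genes were by edgeR). Lower at an unadjusted p under 0.05 were 24, beside 313 of all 6087 genes in either direction. The median estimate of all genes was -0.00414. At most 1 of the 48 was called lower when any 1 of the 8 libraries was left out, and none without hel2Δ replicate 1.

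In ncs2Δelp6Δ against wild type 4 of the 48 were called higher (14.9% of all genes) and 16 lower (13.0% of all genes), beside 5 higher and 1 lower among the 9. SPG4 (1.29 ± 0.29 SE, adjusted p = 0.0106), PRB1, a vacuolar protease (0.75 ± 0.10 SE, adjusted p = 0.000643), and CTT1 (0.33 ± 0.09 SE, adjusted p = 0.0241) rose most, and YGP1 (-2.75 ± 0.14 SE, adjusted p = 1.9e-06), DDR48 (-2.01 ± 0.13 SE, adjusted p = 8.81e-06) and HXK1 (-1.39 ± 0.07 SE, adjusted p = 2.06e-06) fell most. The count of 4 was 1 without wild-type replicate 1, 2 without ncs2Δelp6Δ replicate 1 and 1 without ncs2Δelp6Δ replicate 2. In ncs2Δelp6Δhel2Δ, 26 of the 48 were called higher (15.1% of all genes) and 6 lower (13.8% of all genes) against hel2Δ, and 17 higher (14.9% of all genes) and 11 lower (14.9% of all genes) against wild type. The count of 11 lower against wild type was smaller whichever 1 library was left out, and was 8 by DESeq2. The count of 17 higher was smaller without either ncs2Δelp6Δhel2Δ library. SPG4 was 2.25 ± 0.28 SE higher in ncs2Δelp6Δhel2Δ than in wild type (adjusted p = 0.00043), while DDR48 was at -1.63 ± 0.13 SE (adjusted p = 1.74e-05). The upstream windows of 44 of these 48 genes held a stress response element core and those of 31 held at least 2.

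Other groups were examined beside the 9. Of 20 core targets of Hsf1, the heat shock factor, 10 rose in ncs2Δelp6Δhel2Δ against ncs2Δelp6Δ (2.81% of all genes). None fell by edgeR, at an unadjusted p under 0.05 or by DESeq2 (4.12% of all genes fell by edgeR). HSP42, a small chaperone, rose most, by 2.47 ± 0.10 SE (adjusted p = 6.13e-07). In ncs2Δelp6Δ against wild type 11 of these 20 rose (14.9% of all genes), led by BTN2 at 1.46 ± 0.14 SE (adjusted p = 0.000104). None of the 20 fell there by edgeR (13.0% of all genes), with 2 (HSP60 and SIS1, named after their values were seen) lower at an unadjusted p under 0.05 and 1 (HSP60) by DESeq2. Of 12 glucose-repressed genes 1 rose (2.81% of all genes) in ncs2Δelp6Δhel2Δ against ncs2Δelp6Δ, MDH2 by 0.40 ± 0.10 (SE, adjusted p = 0.038), with a summed level of 359.9 and 387 CPM in ncs2Δelp6Δhel2Δ against 357 and 342 CPM in ncs2Δelp6Δ. Of 12 ribosome biogenesis genes 2 fell (4.12% of all genes) in the same comparison, UTP20 the most, by 0.44 ± 0.08 (SE, adjusted p = 0.0145). DESeq2 called the same number lower, and the part of growth rate in the levels of the 9 was not tested.

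The non-member genes whose levels ran most like those of the 9, by the correlation of log2 CPM with their mean standardised profile over 8 libraries among 5265 genes with a mean of at least 10 CPM, were CTT1 (0.9975), HSP26 (0.9974), YGR250C (0.9970), LSP1 (0.9930) and SSA4 (0.9923). HSP26, a small heat shock protein, averaged 591 ± 50.2 CPM in ncs2Δelp6Δhel2Δ, 67.3 ± 0.153 CPM in ncs2Δelp6Δ and 22.1 ± 0.626 CPM in hel2Δ, against 47.9 ± 7.38 CPM in wild type (SD, n = 2 each). SSA4, a heat-induced Hsp70, averaged 827 ± 16.1 CPM in ncs2Δelp6Δhel2Δ, 137 ± 4.96 CPM in ncs2Δelp6Δ and 63.9 ± 0.12 CPM in hel2Δ, against 79.6 ± 0.36 CPM in wild type. All 5 shared the order of HSP12, highest in ncs2Δelp6Δhel2Δ, then ncs2Δelp6Δ, then wild type, with hel2Δ lowest. Among the 9 themselves the most alike pairs were TMA10 with HSP31 (0.994) and YJL144W with HSP30 (0.992), and STF2 had correlations with the others between -0.123 and 0.498.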

How the data were processed

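The authors deposited raw counts of reads per gene, whole numbers that are not normalised, in 1 table for the 8 mRNA libraries. Per the study's methods reads were mapped to coding sequences without adaptor trimming, and the submitters' processing notes name Bowtie and sacCer3. The counting program, strand setting and treatment of multiply mapping reads are not given in the sources used here. Groups came from the labels. Genes with low counts were removed by filterByExpr, and all 8 libraries entered 1 model, in which each strain had its own mean, with the quasi-likelihood F test of edgeR 4.0.16 in R 4.3.3, with TMM scaling, two-sided tests and Benjamini-Hochberg adjustment over 6087 genes. The threshold for a call was an adjusted p of 0.05. SEs were obtained from each log2 fold change and its F statistic. The fit was tested on simulated data. Alternatives were RLE factors, library totals, no filter, DESeq2 1.42.0, a replicate block, fits of only the strains compared and each library left out. Windows and proteins were taken from the RefSeq R64 genome, identities from global alignment in Biopython 1.88 and copies from BLAST 2.17.0. The 9 genes, the other gene lists and the tests were chosen with earlier results of these data known. All relatives and regulators in the lists were named, apart from an item that is not reported here, and of the general stress genes the 3 largest called rises and falls per comparison. Of the remaining lists the largest called rise and fall were named where a list is described.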

Additional observations from a re-analysis of the deposited data

Results flagged for a closer look

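For 4 of the 9 genes, loss of HEL2 moved every library in opposite directions in the 2 backgrounds: both ncs2Δelp6Δhel2Δ libraries lay above both ncs2Δelp6Δ libraries, and both hel2Δ libraries lay below both wild-type libraries. Of all 6087 genes, 270 (4.44%) had this pattern, and the choice of the 9 used both comparisons, so nothing is read from their count. The difference between the log2 changes was 3.72 for DDR2, 2.98 for HSP12, 1.35 for HSP31 and 1.24 for STF2. It was not tested for these genes, since several of them were chosen on the rise in ncs2Δelp6Δhel2Δ with the lower level in hel2Δ known.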

How the results depend on the processing

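No member that was called changed direction under any alternative run. Estimates that were not called changed sign in hel2Δ against wild type when 1 library was left out, with ranges of -0.19 to 0.00043 for YJL144W, -0.23 to 0.125 for HSP30 (0.0547 without hel2Δ replicate 1), -0.083 to 0.0328 for TMA10 and -0.66 to 0.0796 for SIP18, and in ncs2Δelp6Δ against wild type for DDR2, between -0.33 and 0.0237 (0.00646 without wild-type replicate 2). GRE1 in ncs2Δelp6Δhel2Δ against ncs2Δelp6Δ (-0.092 to 0.435) and STF2 in ncs2Δelp6Δhel2Δ against wild type (-0.094 to 0.096) also spanned 0. The cause was not tested. In hel2Δ against wild type the choice of the 9 used the values, so no calls are given for them. The estimate of DDR2 there was -0.782 by DESeq2, beside -0.781 by edgeR. Of the 48 general stress genes DESeq2 called 6 lower there and 25 positive for the difference between the effects of HEL2 loss. With only hel2Δ and wild type in the fit, 0 general stress genes were called lower. TMA10 lost its call in ncs2Δelp6Δ against wild type with only those strains in the fit (adjusted p = 0.0615). GRE1 gained a call there with library totals (adjusted p = 0.0268), with only those strains in the fit (0.0478) and without either ncs2Δelp6Δhel2Δ library (0.0437 and 0.0401), and HSP31 did so with library totals (0.0436), which moved the median of all genes by 0.141 in this comparison and by 0.105 in ncs2Δelp6Δhel2Δ against hel2Δ.

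Among all genes, 40 were called in hel2Δ against wild type, 61 by DESeq2 and 17 with only those strains in the fit. In ncs2Δelp6Δhel2Δ against ncs2Δelp6Δ 422 were called, 647 by DESeq2 and 869 with only those strains, and for the difference between the effects 69 were called, 153 by DESeq2. The replicate numbers shared by the labels were not taken to pair the libraries: deviations of same-numbered libraries correlated at 0.476 between hel2Δ and wild type, but between -0.209 and 0.120 for the other 5 pairs of strains. With a replicate block 663 and 119 genes were called in the last 2 comparisons. With that block the counts for the 9 genes in ncs2Δelp6Δ against wild type stayed at 5 higher and 1 lower. In the runs named above calls of TMA10, GRE1 or HSP31 changed, and the count of higher genes with them. Leaving out 1 library gave 19 to 30, 791 to 1750, 69 to 587, 904 to 1840, 873 to 1887 and 40 to 140 genes called in hel2Δ against wild type, ncs2Δelp6Δ against wild type, ncs2Δelp6Δhel2Δ against ncs2Δelp6Δ, hel2Δ and wild type, and the difference. A lone library was assumed to vary like those of the other strains. For the general stress genes this gave 0 to 1 lower in hel2Δ, 1 to 5 higher in ncs2Δelp6Δ, 7 to 24 higher in ncs2Δelp6Δhel2Δ against ncs2Δelp6Δ, 11 to 17 higher and 7 to 8 lower against wild type, and 6 to 16 positive for the difference. Depth limits GRE1 and SIP18 most, with 31 to 252 counts per library.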
